A study of Equus caballus with 4 samples.

Results

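Mitochondrial ribosomal proteins were examined as 1 gene family in differentiating equine satellite cells that had been exposed to gamma-oryzanol (GO), a mixture of plant sterol ferulates extracted from rice bran oil. Members were the genes whose symbol on the array is MRPL or MRPS followed by a number and at most 1 letter. The horse array held 65 such genes among 13350 with a symbol, and 125 of its 43603 noncontrol probes carried their symbols. By the letter in the symbol, 40 belonged to the large subunit (MRPL) and 25 to the small subunit (MRPS). None of them passed both thresholds used here, an adjusted p of at most 0.05 with a fold change of at least 1.3. That fold is a log2 ratio of 0.38 in either direction. The mean log2 ratios of the members lay between -0.18 and 0.31. The lowest was that of a gene labelled MRPS17, whose probe the array describes as a zinc finger protein. Next came MRPL35, at -0.16.

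The cells were satellite cells, the resident muscle stem cells, of horse semitendinosus muscle, grown in primary culture and collected on day 3 of differentiation. GO-treated cells had received 125 nM GO for 24 h, and control cells only the solvent, dimethyl sulfoxide (DMSO), at the 0.04 µl/ml that the GO cells also received. Each of 4 arrays compared GO cells, labelled with Cy5, with control cells, labelled with Cy3, and the labels call the 4 arrays biological replicates. The 4 ratios are therefore 4 comparisons paired by array. Whether the GO and control RNA of an array came from matched cultures is not stated. The methods describe cultures from several young horses and a choice of the cell line with the best scores, but which animal or culture each array came from is not given in the sources used here, so p-values measure the spread between these arrays. The dyes were never swapped, so GO and the effect of the dye on any probe cannot be told apart.

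Mitochondria carry their own ribosomes, which translate the few proteins still encoded by mitochondrial DNA, all of them subunits of the respiratory chain and ATP synthase. Every protein of this ribosome is encoded in the nucleus, made in the cytosol and imported. Some descend from bacterial ribosomal proteins and others have no bacterial counterpart. The small subunit reads the messenger RNA and the large subunit joins the amino acids. Myoblasts build more mitochondria as they differentiate into muscle fibres.

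Each gene was read by probes of 60 bases, of which the probe with the highest mean signal gave the gene its value. The probes that carry the members' extremes are shown first, 5′ to 3′, with their positions in horse genome build EquCab1 as the array files give them. Shown are the 3 members with the highest ratios, the next to last and last of the ranking, both regions of MRPS6 that gave different ratios, and MRPL20, a family gene that the array lists under another name.
MRPL2 (higher, 0.31), chr20:35545513-35545572: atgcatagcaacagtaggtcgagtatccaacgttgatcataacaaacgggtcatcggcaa
MRPL45 (higher, 0.27), chr11:22461866-22461925: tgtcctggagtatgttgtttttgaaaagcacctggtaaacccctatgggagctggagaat
MRPL10 (0.23), chr11:22775625-22775684: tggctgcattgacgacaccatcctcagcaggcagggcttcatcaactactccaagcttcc
MRPL35 (-0.16), chr15:14909277-14909336: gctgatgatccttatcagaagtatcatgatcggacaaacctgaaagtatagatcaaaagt
MRPS17 as labelled (-0.18), chr13:286783-286842: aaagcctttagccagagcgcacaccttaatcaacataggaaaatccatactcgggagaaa
MRPS6, region with the higher ratios (0.28), chr26:11175616-11175675: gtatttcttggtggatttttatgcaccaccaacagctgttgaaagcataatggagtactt
MRPS6, brightest probe (0.10), chr26:11175472-11175531: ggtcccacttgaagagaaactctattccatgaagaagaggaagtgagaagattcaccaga
MRPL20 (-0.29), chrUn:253724057-253724116: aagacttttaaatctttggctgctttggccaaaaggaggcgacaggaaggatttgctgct
The values in brackets are mean log2 ratios, GO over control. The probe labelled MRPS17 is a member by its symbol only, and the array files describe it as a zinc finger protein. Its values are therefore not read here as those of a ribosomal protein. An annotation of that build was not used here, so whether a probe lies in an exon or an untranslated region is not given.

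All 65 members were well above background in both channels on all 4 arrays. The filter on dim probes, which asked for a signal well above background in the red or the green channel on every array, was passed by 67.9% of the genes with a symbol and by every member. Per array, the probes above background made up 63.5% to 68.9% for control RNA and 57.4% to 67.0% for GO RNA, and no spot was saturated. Markers chosen to check the cells were counted only where the array carried their symbol, which left some out. Of the muscle markers, 7 were on the array and all 7 were tested. Of these, 6 fell past both thresholds, where 5.37% of all genes did. The median log2 ratio over the 7 was -0.63 (MYF5 -0.93, MYH3 -0.83), and the means ran from -0.93 to -0.36. By array the median was -0.31, -0.66, -0.79 and -0.78, smallest in size on array 1. The fibroblast markers were also measured, 8 of 9, with a median of 0.03 (range of means -0.10 to 0.87) and 5 above 0. Only 1 was past both thresholds (PDGFRA, higher at 0.87), where 3.33% of all genes were higher. Leukocyte markers passed the filter in 3 of 8 cases and none was called (range of means -0.28 to 0.20), while 0 of 5 endothelial and 0 of 4 adipocyte markers passed it. A lower ratio in bulk RNA cannot separate fewer cells of a type from less RNA per cell. The part of these shifts in the members' ratios was not tested.

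Across the family, 0 of 65 members passed both thresholds (0 higher and 0 lower), against 8.7% of the 9058 genes tested (788 genes, of which 302 or 3.33% higher and 486 or 5.37% lower). By the adjusted p alone (limma, Benjamini-Hochberg), 2 members passed, MRPL2 and MRPL45, both higher, where 17.3% of all genes did (8.03% higher and 9.28% lower). At an unadjusted p under 0.05 there were 8 members (12.3%) and 3151 of all genes (34.8%). No member's mean passed the fold threshold, which 916 of the 9058 genes did. The middle of the family was close to 0: the median log2 ratio was 0.03 (0.08, 0.02, 0.04 and 0.00 on arrays 1 to 4), against 0.00 over all genes. Members also spread less than genes at large, with a standard deviation (SD) of their mean ratios of 0.11 against 0.27, as a description of these arrays. Similar lists described below also spread less than genes at large. Their SDs were 0.12 for mitochondrial aminoacyl-tRNA synthetases, 0.13 for the respiratory chain and ATP synthase and 0.16 for cytosolic ribosomal proteins. For drivers of mitochondrial biogenesis the SD was 0.26. Genes at large include dimmer ones: 8233 of the 9058 passed the filter in both channels, as did every member. Above 0 were 38 members (58.5%) and 50.7% of all genes. Within each array the SD over members was 0.22, 0.12, 0.12 and 0.15, below the 0.33, 0.25, 0.36 and 0.35 over all genes. The members' SD was thus widest on array 1.

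How far the arrays limit a change was read from limma's 95% interval of each mean. These intervals reached 0.13 to 0.28 to either side of the mean, with a median of 0.15. For 60 of 65 members the interval lay wholly within the fold threshold. For the other 5 it reached past the threshold on the upper side (MRPL2, MRPL45, MRPL10, MRPL42 and MRPS27), and for none on the lower side. By size, 36 means were within 0.1 of 0, 23 were between 0.1 and 0.2 and 6 were larger. Of the 260 single-array values, 8 were past the fold threshold, 5 of them on array 1. On every array 15 members were above 0 and 5 below it, while 45 changed sign between arrays. The same sign on all arrays was thus seen for 20 of 65 members, and for 3828 of the 9058 genes tested.

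**Figure D1:**
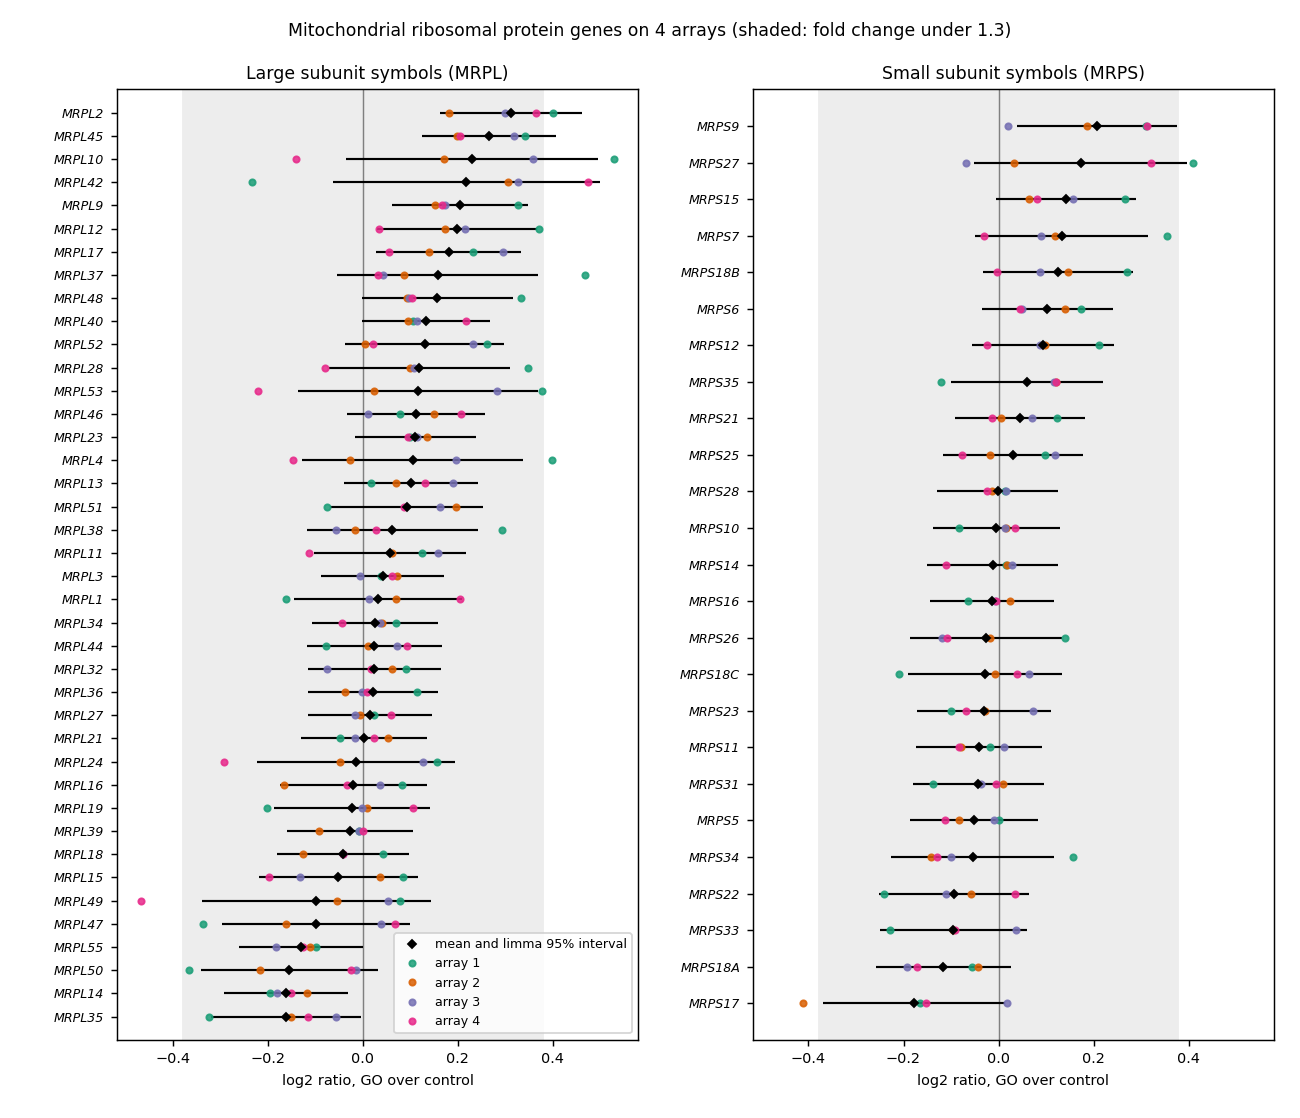
Log2 ratio, GO over control, of 65 mitochondrial ribosomal protein genes on each of 4 arrays (coloured points), with the mean (diamond) and limma's 95% interval (line), large subunit symbols left and small subunit symbols right. No mean lies outside the shaded band of fold changes under 1.3, and 5 intervals leave it, all on the upper side.

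Among the 6 means over 0.2, all higher, 5 belonged to the large subunit and 1 to the small. The 40 large subunit symbols had a median of 0.05, with 28 above 0 (70%). The 25 of the small subunit had a median of -0.01, with 10 above 0 (40%). Genes were split by symbol only. The 25 thus include MRPS18A (-0.12), a protein of the large subunit, and the gene labelled MRPS17 (-0.18), described as a zinc finger protein. On arrays 1 to 4 the medians were 0.08, 0.05, 0.05 and 0.03 for the large subunit and 0.01, 0.00, 0.02 and -0.02 for the small. The sign of the small subunit's median turned under other settings: its median ran from -0.03 to 0.03, and from 0.03 to 0.08 for the large subunit. The difference between the subunits was not tested.

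At the core of the large subunit, MRPL2 is the counterpart of bacterial L2, which lies next to the site where peptide bonds form. Its log2 ratios were 0.40, 0.18, 0.30 and 0.37 on arrays 1 to 4, and the lowest was on array 2. The control signals, in arbitrary units of the scanner, were 1525, 1620, 1620 and 1397, and the GO signals 2012, 1837, 1993 and 1799, so that the lowest GO signal was above the highest control signal. The mean log2 ratio over the 4 arrays was 0.31 ± 0.10 (SD) and its 95% interval 0.16 to 0.46, which is 1.24-fold (limma, adjusted p = 0.0214). Only 3 of 65 members had GO and control signals that did not overlap, against 7.53% of all genes: MRPL2, MRPL9 with GO above and MRPL55 with GO below.

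MRPL45 holds the ribosome at the inner mitochondrial membrane and has no bacterial counterpart. Its ratios were 0.34, 0.20, 0.32 and 0.21, all higher, with a mean of 0.27 ± 0.08 (SD, n = 4; limma, adjusted p = 0.0286). The control signals of 1567, 1464, 1413 and 1265 overlapped with the GO signals of 1987, 1679, 1762 and 1459. Both calls depended on which arrays were kept. Without array 1 the adjusted p (limma) was 0.0481 for MRPL2 and 0.0575 for MRPL45, and without array 2, 3 or 4 it was 0.0578, 0.0773 and 0.0673 for MRPL2 and 0.0907, 0.112 and 0.0638 for MRPL45.

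**Figure D2:**
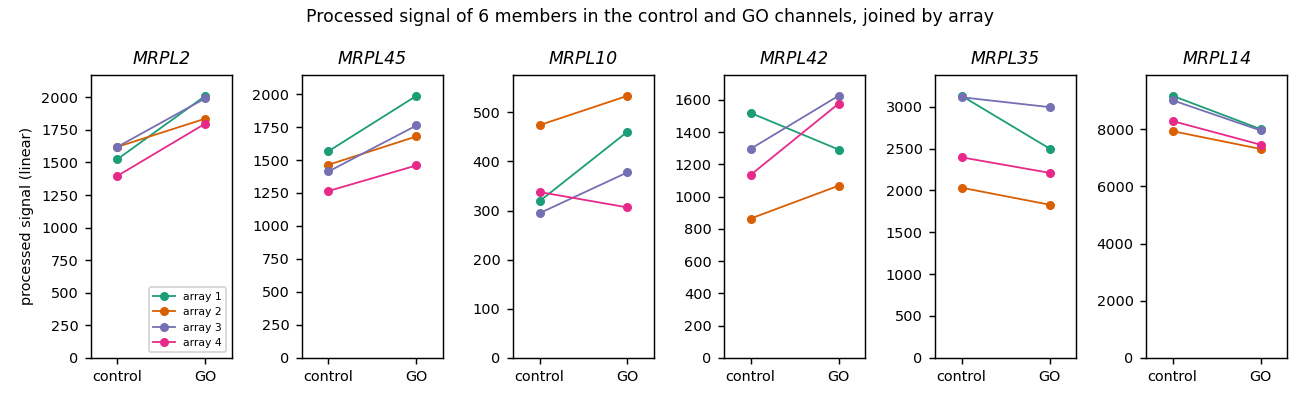
Processed signal (linear, arbitrary units) of 6 members in the control and GO channels, with the 2 signals of an array joined by a line. Array 1 of MRPL42 and array 4 of MRPL10 run against the other arrays, and all lines of MRPL2 and MRPL45 rise while all lines of MRPL35 and MRPL14 fall.

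The next members by size did not pass the adjusted p. MRPL10 and MRPL12 belong to the stalk that recruits translation factors. MRPL10 gave 0.53, 0.17, 0.36 and -0.14, so that array 4 was below 0, and its mean of 0.23 had an SD of 0.29 (limma, adjusted p = 0.187). MRPL12, whose 4 ratios were all positive, gave 0.37, 0.17, 0.22 and 0.03, with a mean of 0.20 ± 0.14 (limma, adjusted p = 0.0975). The pattern of MRPL42 differed: array 1 gave -0.23 and the others 0.31, 0.33 and 0.47, and its mean of 0.22 had an SD of 0.31 (limma, adjusted p = 0.230). Its other probes showed the same pattern, with -0.28 and -0.25 on array 1. MRPL9 gave 0.33, 0.15, 0.17 and 0.17, and MRPL17 gave 0.23, 0.14, 0.30 and 0.05. Their adjusted p-values (limma) were 0.0597 and 0.0966.

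Other members of the large subunit without a bacterial counterpart include MRPL37, MRPL48, MRPL40, MRPL52 and MRPL53. MRPL37 gave 0.47, 0.09, 0.04 and 0.03, so that its mean of 0.16 came mostly from array 1 (limma, adjusted p = 0.247). MRPL48 had the same shape at 0.33, 0.09, 0.10 and 0.10, with a mean of 0.16, and MRPL40 the reverse, with 0.11, 0.09, 0.11 and 0.22 and a mean of 0.13. MRPL52 gave 0.26, 0.01, 0.23 and 0.02, with a mean of 0.13, and the mean of MRPL53 was 0.12. The ratios of MRPL53 ran from -0.22 on array 4 to 0.38 on array 1. MRPL28 gave 0.35, 0.10, 0.11 and -0.08, and its mean of 0.12 was 0.04 without array 1 and 0.19 without array 4.

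By the brightest probe, ratios below 0 on all 4 arrays were seen for MRPL35, MRPL14, MRPL50, MRPL55 and MRPS18A, and none passed the adjusted p. MRPL14 is a counterpart of bacterial L14 and sits where the subunits meet. It gave -0.20, -0.12, -0.18 and -0.15, with a mean of -0.16 ± 0.03 (limma, adjusted p = 0.0858), the tightest of these. MRPL35 gave -0.32, -0.15, -0.06 and -0.12, with a mean of -0.16 (limma, adjusted p = 0.132), its lowest value on array 1. The signals of MRPL55 were 7290, 7609, 7891 and 7523 in control and 6806, 7043, 6951 and 6895 in GO cells, so the GO signals lay below all control signals, at a mean log2 ratio of -0.13 (limma, adjusted p = 0.142). MRPL50 had a mean of -0.15 that rested on arrays 1 and 2, at -0.37 and -0.22, with -0.01 and -0.02 on the others. Its other probes, which overlap the brightest, gave 0.04, 0.04, -0.05 and 0.001 on array 4. The means of its 5 probes ran from -0.15 to -0.09.

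In the small subunit, MRPS9, a counterpart of bacterial S9, was the highest, with 0.31, 0.19, 0.02 and 0.31 and a mean of 0.21 ± 0.14 (limma, adjusted p = 0.0880). MRPS27, a pentatricopeptide repeat protein, gave 0.41, 0.03, -0.07 and 0.32, with a mean of 0.17 and an SD of 0.23. MRPS15 gave 0.27, 0.06, 0.16 and 0.08, with a mean of 0.14. MRPS7 gave 0.355, 0.12, 0.09 and -0.03, and its mean of 0.13 was 0.06 without array 1. MRPS12, a counterpart of the bacterial S12 that helps to read codons, gave 0.21, 0.10, 0.09 and -0.02 (mean 0.09, limma, adjusted p = 0.328). The 3 paralogs of bacterial S18 differed in their means: MRPS18A, which is built into the large subunit in spite of its name, had -0.12 (-0.06, -0.04, -0.19 and -0.17), MRPS18B 0.13 (0.27, 0.15, 0.09 and -0.004) and MRPS18C -0.03 (-0.21, -0.01, 0.06 and 0.04). None of these passed the adjusted p (limma, 0.208, 0.220 and 0.799). The gene labelled MRPS17, which the array describes as a zinc finger protein, gave -0.16, -0.41, 0.02 and -0.15. Its mean was -0.18 (limma, adjusted p = 0.162). With that gene left out, the median over the remaining 64 was 0.03 and still 0 of them passed both thresholds.

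Most members had a single probe (40), and 25 had more. Of the 125 member probes 124 were tested, and 0 passed both thresholds, against 8.94% of the 26833 probes tested (2399 probes). By the adjusted p alone 8 member probes passed, against 18.1% of all probes: those of MRPL2 and MRPL45, 5 of MRPS6 and 1 of MRPL52. Pairs of probes of 1 gene that shared at least 20 bases differed by a median of 0.02 and at most 0.13 (102 pairs), while 35 pairs with fewer shared bases differed by a median of 0.13 and at most 0.21. Of these 35 pairs 22 were of MRPS6, and the other 13, from 12 genes, differed by a median of 0.05 and at most 0.12. Probes that share bases are not independent measurements of a gene.

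MRPS6, a counterpart of bacterial S6 with 9 probes on chromosome 26, held the widest difference. The 4 probes around the brightest (0.07 to 0.10) had adjusted p-values of 0.220 to 0.414 (limma), and their means by array were 0.15, 0.12, 0.05 and 0.06. The 5 overlapping probes on the other side (0.23 to 0.28) had 0.0216 to 0.0487 (limma), with means of 0.36, 0.29, 0.17 and 0.21 by array, and were higher on every array. Neither region passed the fold threshold. MRPL52 showed the same kind of split: its brightest probe gave 0.13 (limma, adjusted p = 0.230), and 2 overlapping probes at higher coordinates gave 0.25 and 0.23 (limma, adjusted p = 0.0343 and 0.0509). The probes of 6 members lay on both sides of 0, all within 0.10 of it: MRPL34 (-0.09 and 0.03), MRPS14 (-0.01 to 0.06), MRPS16 (-0.01 to 0.03), MRPS18C (-0.06 to 0.06), MRPS23 (-0.03 and 0.07) and MRPS28 (-0.02 to 0.07).

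**Figure D3:**
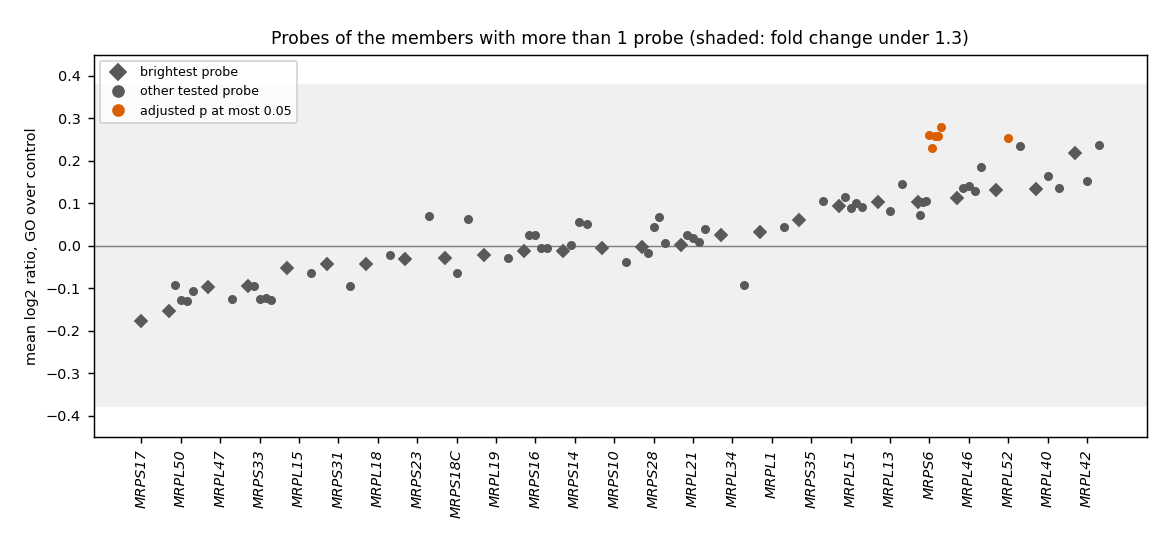
Mean log2 ratio, GO over control, of every tested probe of the 25 members with more than 1 probe, ordered by the value of the brightest probe (diamond). Coloured points passed the adjusted p, 5 of them in MRPS6 and 1 in MRPL52, and every point lies in the shaded band of fold changes under 1.3.

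A further 5 genes that the array describes as mitochondrial ribosomal proteins lack such a symbol: MRPL20, MRPL22, MRPL43, MRPS24 and MRPS30. Another 4, under names of their own, are given with the related lists below. The 5 were matched by the array's description, and MRPL20 also by its gene number in RefSeq. MRPL20, a counterpart of bacterial L20 that helps to assemble the subunit, was the clearest. Its brightest probe gave -0.28, -0.34, -0.30 and -0.26, a mean of -0.29 ± 0.03 (SD, n = 4; limma, adjusted p = 0.0169), and its 5 overlapping probes gave -0.31 to -0.28, all past the adjusted p and none past the fold threshold. Its ratio was below those of all 65 members, and it was singled out after its values were seen. The other genes had means between -0.04 and 0.15 over their probes. Adding the 5 genes left 0 of 70 past both thresholds and a median of 0.03. With 63 members found under the same symbol in RefSeq's horse gene table, that table held 12 symbols of the pattern that no gene name on the array carried.

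For the lists below, the shares over all genes were 8.7% past both thresholds and, by adjusted p, 8.03% higher and 9.28% lower. Of the rest of the pathway, translation factors of the mitochondrion had 12 genes tested, with 0 past both thresholds and 1 lower by adjusted p. This was LRPPRC, which with SLIRP binds and stabilises mitochondrial messenger RNA, at -0.40, -0.25, -0.44 and -0.40 (mean -0.37 ± 0.08, limma, adjusted p = 0.0119), just inside the fold threshold. The call of LRPPRC was lost without array 3 (limma, adjusted p = 0.0552), in the plain test (0.0723) and with no replicate block (0.135). SLIRP gave -0.13 (limma, adjusted p = 0.151). The second probe of LRPPRC, with a mean of -0.47 and an adjusted p of 0.00560 (limma), passed both. The list of ribosome assembly and RNA modification had 18 of 19 genes tested, 0 past both thresholds and 3 higher by adjusted p. They were RPUSD4, a pseudouridine synthase of the large ribosomal RNA (0.32, limma, adjusted p = 0.0255), MTG1, a GTPase of large subunit assembly (0.30, adjusted p = 0.0299), and MRM1, a methyltransferase of ribosomal RNA (0.24, adjusted p = 0.0466). None of these 3 calls remained with any single array left out (limma, adjusted p from 0.0574 to 0.152). The median of this list was 0.07, with 13 of 18 above 0. At an unadjusted p under 0.05 (limma) its share was 38.9%, against 34.8% of all genes. Among 15 aminoacyl-tRNA synthetases of 17, 7 of 8 genes for mitochondrial DNA replication and transcription and 4 members with other symbols (DAP3, ICT1, PTCD3 and CHCHD1), none passed either threshold. TFAM, which packages mitochondrial DNA, gave -0.18 (limma, adjusted p = 0.122).

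Of 7 tested genes that drive mitochondrial biogenesis, 1 passed both thresholds, where 8.7% of all genes did (3.33% higher). NRF1, the nuclear respiratory factor that binds many promoters of mitochondrial genes, gave 0.40, 0.73, 0.44 and 0.86, with a mean of 0.61 ± 0.22 (limma, adjusted p = 0.00972), higher on 4 of 4 arrays. Its probe was dim (mean log2 signal 4.92), and the call was lost after normexp and loess (0.21, limma, adjusted p = 0.0615) and without array 2 (0.57, limma, adjusted p = 0.0503). It was also lost without a filter, in the plain test and with the channels as separate samples, and over all alternatives its adjusted p ran from 0.00462 to 0.102. The second probe of NRF1 was too dim to be tested. PPARGC1B and ESRRA, its partners in the control of mitochondrial genes, had means of -0.19 and -0.16, and GABPA and MYC of 0.07 each, and none of these passed the adjusted p.

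**Figure D4:**
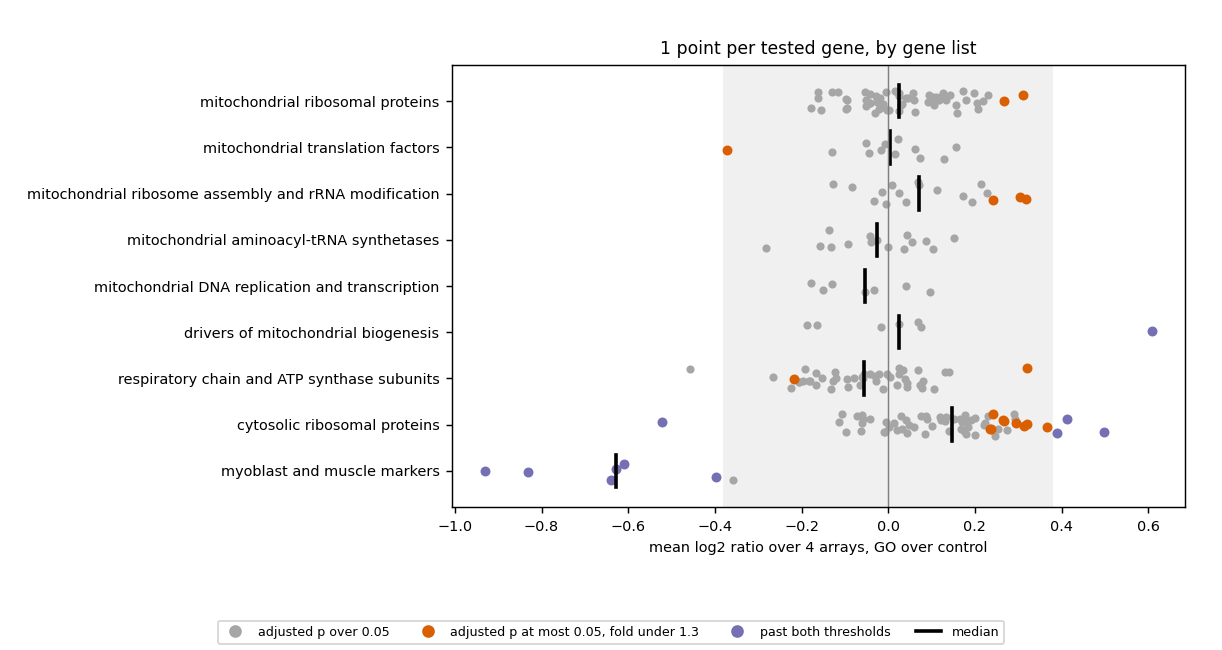
Mean log2 ratio over 4 arrays, GO over control, with 1 point per tested gene, its median per list (bar) and its call by colour. The members range from -0.18 to 0.31 around a median of 0.03, NRF1 stands at 0.61 and the muscle markers lie below -0.35.

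Compared with other large complexes, the members' median lay between theirs when taken over the means of 4 arrays. On array 1 it was the highest, at 0.08 against 0.04 for cytosolic ribosomal proteins and -0.07 for the respiratory chain. Over all genes tested, 3.33% were higher and 5.37% lower past both thresholds, and 8.03% higher and 9.28% lower by adjusted p. Cytosolic ribosomal proteins had a median of 0.15, with 51 of 64 above 0 (79.7%). Of these 64, 3 were higher and 1 lower past both thresholds, and 12 higher and 1 lower by adjusted p. Respiratory chain and ATP synthase subunits had a median of -0.06, with 17 of 47 above 0 (36.2%), 0 past both thresholds, and 1 higher and 1 lower by adjusted p. These medians depended on the dye normalization. When arrays were centred on their median without lowess, the cytosolic median was 0.89, that of the respiratory chain 0.13 and that of the members 0.07. The members were then the lowest of the 3 lists. The 3 lists are read from the same arrays, and no test was made of the difference between them. The ratios of the 65 members correlated from r = 0.06 (arrays 1 and 4) to 0.56 (arrays 2 and 4), and those of all genes from 0.40 to 0.70, across genes of the same slide and dyes.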

How the data were processed

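Expression was measured on 4 two-color Agilent horse arrays, 1 slide, GO cells in Cy5 and control cells in Cy3. The authors scanned them with Feature Extraction, version 10.10.1.1 in the file headers (a different version is stated in the methods), which subtracted background, detrended and normalized the dyes by lowess. The deposited log10 ratio (red over green) was multiplied by log2 of 10 to give log2 ratios. The deposited intensity of each channel (processed signal) chose the brightest probe of each gene. The deposited series table held the same log ratios (180880 of 180880 values within 1e-6). Of 43603 noncontrol probes, 26833 that were well above background in the red or green channel on all 4 arrays were tested, after averaging spots of 1 probe (50 probes had more than 1 spot). limma 3.58.1 in R 4.3.3 fitted the mean ratio over 4 arrays, and empirical Bayes p-values were adjusted by Benjamini-Hochberg over all probes. The test was checked on simulated data. Array number limits the precision. An exact sign-flip test of 4 ratios cannot give a p below 0.125, so none was used. Alternatives were normexp with loess, other centring, filters, tests, weights and left-out arrays. Named members were those past either threshold, then by size of the mean ratio until 24, with MRPS18A, MRPS18B, MRPS18C, MRPL12, MRPS12, members whose probes differ in sign, and related genes past both thresholds. The family, the lists and the tests were chosen with earlier results of these data known, and MRPL20 and the other genes under other names were added after their values were seen.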

Additional observations from a re-analysis of the deposited data

Results flagged for a closer look

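In 8 of 65 members (12.3%) 1 array stood apart from the other 3 by Dixon's ratio of gap to range, above the 95% critical value for 4 samples. Chance alone gives about 1 in 20 groups, and by the same measure 451 of the 9058 genes tested (4.98%) had such an array. The difference between these shares was not tested. Array 1 was apart in 5 of them: MRPL9 (ratio 0.887, log2 ratio 0.33 on that array), MRPL37 (0.873, 0.47), MRPL48 (0.960, 0.33), MRPS35 (0.982, -0.12) and MRPS34 (0.859, 0.16). Array 4 was apart for MRPL40 (0.847, 0.22) and MRPS14 (0.902, -0.11), and array 2 for MRPL39 (0.896, -0.09).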

How the results depend on the processing

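The number of members past both thresholds was 0 under every alternative run, from 0 to 0 with each array left out. The share of all genes past both, 8.7% in the main fit, was 3.96% after normexp and loess and 2.35% without a filter. It was 1.16% with no replicate block, 0.42% in the plain test and 10.8% with median centring and no lowess. Without array 1, 2, 3 or 4 it was 8.59%, 5.53%, 5.3% and 7.45%. Where this share was small, 0 of 65 says little about the family. By the adjusted p alone the number of members was 2 (MRPL2 and MRPL45), with 17.3% of all genes. It was 4 after normexp and loess, where MRPL55 and MRPL14, both lower, joined. It was 0 in the plain one-sample test, where the lowest member adjusted p was 0.0574, and 0 with no replicate block, where the channels were separate samples and the lowest was 0.243. Without a filter on dim probes MRPL23 and MRPL14 passed instead. Without array 1, MRPL2 and MRPL42 passed, and without array 2, 3 or 4 none did (lowest limma adjusted p 0.0578, 0.0773 and 0.0590). The probes past both thresholds, 2399, became 1297 after normexp and loess, 908 without a filter, 147 in the plain test, 370 with no replicate block and 4859 by adjusted p alone, with 1566 to 2430 when 1 array was left out (1566 without array 2, 1603 without array 3). The share of these calls that were higher, 37.3%, became 19.7% in the plain test and 17.8% with no replicate block. The family's median of 0.03 was 0.068 with median centring and no lowess (all genes -0.02), 0.0058 after normexp and loess (all genes -0.01) and ran from 0.02 to 0.04 with an array left out. Over all 65 members, the mean turned sign in 8 with median centring and no lowess, 8 without array 4, 6 without array 1, 5 as the mean of probes, 4 after normexp and loess and at most 3 under the other alternatives. Among the members named in the text, those that turned with median centring and no lowess were MRPS18C 0.026, MRPS14 0.082, MRPS16 0.15 and MRPS23 0.16. The other turns among the named members were MRPL34 (-0.010 after normexp and loess, -0.033 as the mean of its probes), MRPS18C (-0.059 to 0.032 with an array left out, above 0 without array 1), MRPS16 (-0.025 to 0.0038, above 0 without array 1, 0.0051 as the mean of its probes), MRPS28 (-0.0083 to 0.0055, above 0 without array 2 or 4, 0.020 as the mean of its probes), MRPS14 (-0.026 to 0.021, above 0 without array 4, 0.024 as the mean of its probes) and MRPS23 (0.020 as the mean of its probes). The cause was not tested. Of the named members' values under alternatives, 419 kept their direction and 15 did not, and none passed both thresholds.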

Other observations

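Members that lie within 1 Mb of each other in EquCab1 were compared as values only. MRPL45 and MRPL10, 313759 bases apart on chromosome 11, gave 0.27 and 0.23. On chromosome 20, MRPL2 gave 0.31 while MRPS18A, 489079 bases away, gave -0.12 and MRPL14, 908525 bases away, gave -0.16. MRPS18A and MRPL14, both lower, are 419446 bases apart, and MRPS10, 680550 bases from MRPL2, gave -0.005. MRPS11 and MRPL46, 20669 bases apart on chromosome 1, gave -0.04 and 0.11, and MRPL38 and MRPS7 on chromosome 11 gave 0.06 and 0.13.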
